A study of Mus musculus with 36 samples.

Results

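Hemoglobin transcripts were measured in mouse brain after repeated dosing with 3 inhibitors of histone deacetylases, the enzymes that remove acetyl groups from histones. The genes described are Hba-a1 (alpha globin), Hbb-b1 (beta globin) and Alas2 (the erythroid enzyme of heme synthesis), and the question was how their levels in the drug-treated groups compared with vehicle in 3 brain regions, and whether regions of the same animals gave the same picture. Members were all probes whose gene symbol is 1 of these 3, which gave 13 of the 45281 probes on the array: 1 for Hba-a1, 11 for Hbb-b1 and 1 for Alas2. The 3 genes were chosen by low values of beta globin in the cortex and alpha globin in the accumbens of SAHA-treated mice on these same arrays, so every difference between SAHA and vehicle below is a description with no test. SAHA arrays also enter the tests between regions and between regions of a pool, which average over treatments or remove the treatment means, and those tests therefore include arrays that chose the genes. The differences of Cpd-60 and CI-994 from vehicle were tested, but they rest on the same vehicle arrays as the SAHA differences that chose the genes, and so are not independent of that choice.

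The animals were adult male C57BL/6 mice (strain label C57BL/6J) of 4 treatments. Cpd-60, an inhibitor of HDAC1 and HDAC2, was given at 45 mg/kg, SAHA (vorinostat) at 25 mg/kg and CI-994, an inhibitor of class I HDACs, at 10 mg/kg. Vehicle mice received the mixture of saline, PEG-400 and DMSO. All mice had 10 daily intraperitoneal injections, and tissue was taken 1 h after the last. The injected volume was 7.5 mL/kg for vehicle and Cpd-60 and 5 mL/kg for SAHA and CI-994. Since the doses differ, values of the compounds are set beside each other without a comparison between compounds. RNA of 2 mice was pooled for each array, and 3 pools per treatment were hybridised from each of 3 regions, the hippocampus (HIP), the nucleus accumbens (NAc) and the prefrontal cortex (PFC), which gave 36 arrays from 12 pools. The mice came from 2 suppliers, with none named per pool, and no perfusion of the brains is described in the sources used here, so blood in the tissue cannot be told apart from the tissue itself.

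Hemoglobin is a tetramer of alpha and beta globin chains, each holding a heme group. Its messenger RNAs are made in red cell precursors and persist in reticulocytes, the young red cells of blood, and lower amounts have been described in some neurons and glia. Alas2 is the erythroid form of the enzyme that begins heme synthesis, while Alas1 serves other cells. In bulk tissue fewer red cells and less RNA per cell cannot be told apart.

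In red cell precursors, GATA and KLF factors drive globin and heme genes together, and the promoters are shown because the 3 genes are read here as a group. The RefSeq table holds Hba-a1 and Alas2 but no entry named Hbb-b1. C57BL/6J mice carry the adult beta globin genes under the names Hbb-bs and Hbb-bt, so these 2 are shown in its place. Each sequence is the 250 bases before the RefSeq gene start in GRCm38.p6, written 5′ to 3′ on the strand of the gene. Capitals mark ATATAA (a spelling of a TATA box) and CCAAT (a promoter box). They also mark CACCC (the core bound by KLF-type factors) and GATAA (the core bound by GATA factors). Both strands were searched, so that some capitals spell the reverse complement of a motif. Other spellings of a TATA box were not searched, so the shares below count these exact letters only. A match says only that the letters are there, and no 2 matches overlapped, although some adjoin.
Hba-a1, chr11:32283422-32283671, plus strand: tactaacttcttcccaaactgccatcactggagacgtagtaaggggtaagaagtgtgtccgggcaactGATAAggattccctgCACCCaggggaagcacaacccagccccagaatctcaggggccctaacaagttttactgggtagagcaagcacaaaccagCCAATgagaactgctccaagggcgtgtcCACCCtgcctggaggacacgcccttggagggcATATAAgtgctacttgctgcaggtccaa
Hbb-bs, chr7:103827929-103828178, minus strand: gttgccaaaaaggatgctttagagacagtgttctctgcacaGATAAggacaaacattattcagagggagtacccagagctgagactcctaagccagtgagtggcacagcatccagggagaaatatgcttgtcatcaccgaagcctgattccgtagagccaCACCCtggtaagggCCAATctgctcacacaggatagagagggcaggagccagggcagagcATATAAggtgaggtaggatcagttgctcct
Hbb-bt, chr7:103813924-103814173, minus strand: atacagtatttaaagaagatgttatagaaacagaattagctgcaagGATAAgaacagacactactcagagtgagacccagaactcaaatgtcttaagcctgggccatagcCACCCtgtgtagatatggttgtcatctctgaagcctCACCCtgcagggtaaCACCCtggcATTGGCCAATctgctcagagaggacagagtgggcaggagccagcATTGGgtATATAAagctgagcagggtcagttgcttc
Alas2, chrX:150547167-150547416, plus strand: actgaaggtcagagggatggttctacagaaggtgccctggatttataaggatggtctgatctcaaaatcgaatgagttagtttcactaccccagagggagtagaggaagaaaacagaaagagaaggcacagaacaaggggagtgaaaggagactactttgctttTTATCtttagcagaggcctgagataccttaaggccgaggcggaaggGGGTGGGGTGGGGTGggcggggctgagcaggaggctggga

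Hba-a1, Hbb-bs and Hbb-bt held all 4 motifs, which 153 of the 32851 promoters of the table did (0.466%). ATATAA was found in 9.1% of those promoters, CCAAT in 33.8%, CACCC in 52% and GATAA in 22.6%. In the 3 globin promoters the ATATAA began 28, 30 and 29 bases before the start, in the order printed. The Alas2 window held GATAA 86 bases before the start and CACCC 40, 35 and 30 bases before it, all on the other strand, and these letters of the TATA and CCAAT motifs were not in it. The genes lie at chr11:32283672-32284486 (Hba-a1), chr7:103826523-103827928 (Hbb-bs), chr7:103812524-103813923 (Hbb-bt) and chrX:150547417-150570622 (Alas2).

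Levels are log2 of the quantile-normalised probe intensity, on which equal steps are equal ratios. Raw intensities had a median of 82.2 to 108.3 per array, and 31.9% to 43.3% of probes were detected at p of at most 0.01. The 95th percentile of raw intensity ran from 349.9 to 1079.7, and was 437.7 and 452 in SAHA pools 2 and 3 of HIP. The order of pools differed between the raw and normalised scales in places. For Hba-a1 in NAc, raw intensity was 1944.5 in Cpd-60 pool 1 and 3607.2 in pool 3, against levels of 11.83 and 11.13. Each region was run on 2 BeadChips of its own with 6 arrays each, so region and BeadChip cannot be told apart, and the drugs were spread over both in the same layout in each region. Striatal and hippocampal markers followed the labels: 11 of 11 striatal genes were higher in NAc than in PFC, and 5 of 6 hippocampal genes were higher in HIP. The summed level of 6 cortical genes ran from 11.88 to 12.53 over PFC arrays and 9.40 to 10.00 in NAc. In HIP it ran from 11.29 to 12.50, with the highest value on a CI-994 array, so HIP and PFC overlapped. Choroid plexus genes ran from 11.43 to 13.84 over HIP arrays. The part of dissection in the globin values was not tested. The number of arrays limits the precision.

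Hba-a1 was read by 1 probe of high intensity (ILMN_1212702, mean raw intensity 3588.56, range 1340.4 to 6254.3). Of the 11 Hbb-b1 probes, 8 were bright, with mean raw intensities of 2268.89 to 4669.29, and 3 were dim, at 97.675 to 226.678, although brightness also depends on the probe. The brightest, ILMN_1229203, stands for Hbb-b1 below unless another is named. The Alas2 probe (ILMN_2675874) was near background, with raw intensities of 95 to 156.3, and was detected at p of at most 0.01 on 30 of 36 arrays. All but 1 of the 13 probes passed the detection filter in all 3 regions. The exception, the dim Hbb-b1 probe ILMN_1228877, passed in PFC and HIP and was detected at the stricter limit on 3 arrays.

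Hba-a1 and Hbb-b1 read lower in CI-994-treated mice than in vehicle mice in each region, by 29.7% to 45.9% for Hba-a1 and 33.2% to 36.3% for Hbb-b1. Alas2 was 11.5% to 13.8% lower under CI-994. Under SAHA the means were 27.5% to 39.2% lower for Hba-a1, 12.6% to 27.3% lower for Hbb-b1 and 8.74% to 13.1% lower for Alas2. Under Cpd-60 they were 2.53% to 33.0% lower for Hba-a1, 14% to 32.0% lower for Hbb-b1 and 1.18% to 5.33% lower for Alas2. All 27 differences from vehicle (3 genes, 3 drugs, 3 regions) were below 0, but they share 1 set of vehicle pools per region, and within a single region none of the 18 that were tested passed an adjusted p of 0.05, which 0% of all probes did.

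In PFC, the 3 vehicle pools read 12.68, 12.74 and 11.91 for Hba-a1 on the log2 scale, and the CI-994 pools 11.88, 12.11 and 11.81. The Cpd-60 pools read 12.77, 12.04 and 12.41, and the SAHA pools 11.91, 12.03 and 11.999. Vehicle pool 3 stood well below the other vehicle pools and at the level of the SAHA and CI-994 pools, so that the groups overlapped. In NAc, Hba-a1 read 12.41, 12.34 and 11.75 in vehicle pools and 12.08, 11.005 and 10.76 under CI-994. Cpd-60 pools read 11.83, 11.81 and 11.13, and SAHA pools 11.26, 11.37 and 11.71. All SAHA pools lay below all vehicle pools, though closely, while CI-994 pool 1 lay among the vehicle pools. In HIP, the vehicle pools were close together at 11.84, 11.85 and 11.75, and the CI-994 pools at 11.05, 11.11 and 10.92. Cpd-60 pools read 11.66, 11.72 and 11.32, and SAHA pools 10.77, 11.55 and 11.54. All pools of each of the 3 drugs lay below all vehicle pools of HIP.

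The Hba-a1 difference between CI-994 and vehicle was -0.51 in PFC (SE 0.205), -0.89 in NAc (SE 0.328) and -0.78 in HIP (SE 0.176). These had limma adjusted p of 0.9997 to 0.9999 over all probes of a region, and unadjusted p of 0.0283, 0.0211 and 0.000811. For Cpd-60 the Hba-a1 difference was -0.04, -0.58 and -0.25 in PFC, NAc and HIP, with limma adjusted p from 0.985. For SAHA it was -0.46, -0.72 and -0.52, the last of which was -0.26 without SAHA pool 1 and -1.12 with arrays scaled by their median in place of quantile normalisation.

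Hbb-b1 in PFC read 12.96, 12.91 and 12.45 in vehicle pools and 12.15, 12.39 and 12.04 under CI-994. Cpd-60 pools read 12.65, 12.27 and 12.69, and SAHA pools 12.30, 12.36 and 12.29. The CI-994 and SAHA pools were all below the lowest vehicle pool, which was again pool 3, and Cpd-60 pools were on both sides of it. In NAc, the vehicle pools read 12.48, 12.60 and 12.15 and the CI-994 pools 12.31, 11.55 and 11.41. Cpd-60 pools read 12.10, 12.01 and 11.45, and SAHA pools 11.82, 12.02 and 12.12. Cpd-60 and SAHA pools lay below all vehicle pools, and CI-994 pool 1 was above vehicle pool 3. In HIP, the vehicle pools read 12.19, 12.54 and 12.24 and the CI-994 pools 11.73, 11.73 and 11.71. Cpd-60 pools read 12.11, 12.21 and 11.999, and SAHA pools 11.72, 12.35 and 12.32. The CI-994 pools of HIP lay together below all vehicle pools, whereas Cpd-60 and SAHA overlapped with vehicle.

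The Hbb-b1 difference between CI-994 and vehicle was -0.58 in PFC (SE 0.141), -0.65 in NAc (SE 0.238) and -0.60 in HIP (SE 0.147), with limma adjusted p of 0.9997 to 0.9999 and unadjusted p of 0.00125, 0.0204 and 0.00155. For Cpd-60 it was -0.23, -0.56 and -0.22, of which the NAc value alone had an unadjusted p under 0.05 (0.0406, limma adjusted p = 0.999). For SAHA it was -0.46, -0.42 and -0.19, the last of which was 0.0091 without SAHA pool 1 and -0.74 with median scaling.

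Alas2 in PFC read 7.27, 7.28 and 6.78 in vehicle pools and 6.98, 6.97 and 6.85 under CI-994. Cpd-60 pools read 7.14, 6.90 and 7.06, and SAHA pools 6.91, 6.97 and 7.07. Vehicle pool 3 was the lowest of all PFC arrays for Alas2. In NAc, vehicle pools read 7.08, 6.92 and 6.83 and CI-994 pools 6.93, 6.57 and 6.69. Cpd-60 pools read 7.02, 6.91 and 6.70, and SAHA pools 6.73, 6.70 and 6.79. Only SAHA was free of overlap with vehicle in NAc. In HIP, vehicle pools read 7.08, 7.02 and 6.70 and CI-994 pools 6.85, 6.70 and 6.73. Cpd-60 pools read 7.10, 6.93 and 6.73, and SAHA pools 6.88, 6.74 and 6.57. All drug groups overlapped with vehicle there. The Alas2 difference was -0.18, -0.21 and -0.18 for CI-994 in PFC, NAc and HIP. It was -0.08, -0.07 and -0.02 for Cpd-60. SAHA gave -0.13, -0.20 and -0.20. No tested Alas2 value had an unadjusted p under 0.05 by limma.

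**Figure D1:**
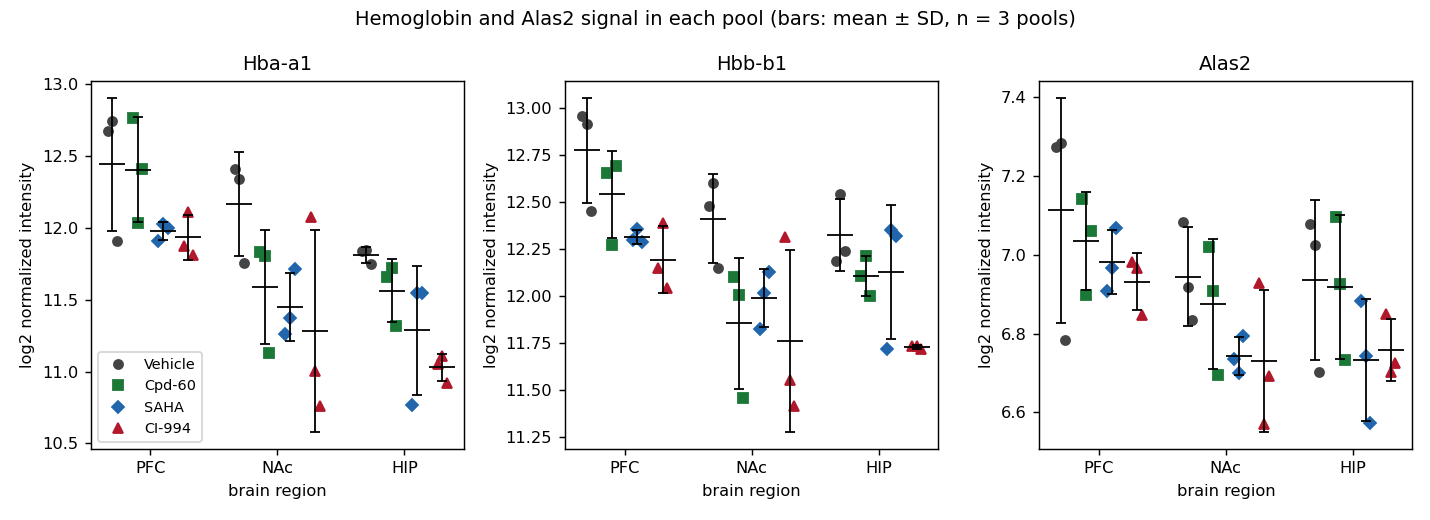
Log2 quantile-normalised intensity (vertical axes) of Hba-a1, Hbb-b1 and Alas2 in each pool, by region and treatment. Points are the 3 pools of a group, and lines with bars are the mean and SD (n = 3). CI-994 pools of HIP lie below all vehicle pools for Hba-a1 and Hbb-b1, and vehicle pool 3 lies at the level of the drug pools for Hba-a1 in PFC.

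By limma's test across all probes of a region, 0 of the 18 tested differences passed an adjusted p of 0.05, and the same 0% held for all probes in each of these comparisons. At an unadjusted p under 0.05, 6 of 9 CI-994 differences and 1 of 9 Cpd-60 differences passed, all in the direction of lower values. The share of all probes so called in that direction was 1.77%, 1.17% and 1.5% for CI-994 in PFC, NAc and HIP. For Cpd-60 it was 2.69%, 2.7% and 2.89%. Tukey's test after analysis of variance over the 4 treatments called 0 of the 18 after adjustment over all probes. The methods name this test too, but their calls used p under 0.05 without that adjustment, a fold-change limit and no CI-994 arrays. Unadjusted Tukey p values are not reported here. All 3 drug pools lay below all 3 vehicle pools in 10 of 27 cases: 3 of 9 for CI-994 (Hbb-b1 in PFC, and Hba-a1 and Hbb-b1 in HIP), 2 of 9 for Cpd-60 and 5 of 9 for SAHA. Among all probes that share was 4.94%, 4% and 4.6% in PFC, NAc and HIP for CI-994. It was 4.81%, 5.12% and 6.43% for Cpd-60. SAHA had 4.27%, 3.73% and 10.8%. No p of an exact permutation test of 3 pools against 3 can fall under 0.1.

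Averaged over the 3 regions, Hbb-b1 fell under CI-994 by 0.61 on the log2 scale (34.4% lower, SE 0.113, 95% interval -0.84 to -0.378, limma adjusted p = 0.0153). Hba-a1 differed by -0.73 (39.5% lower, SE 0.154, interval -1.04 to -0.409, limma adjusted p = 0.0667) and Alas2 by -0.19 (12.4% lower, SE 0.071, interval -0.34 to -0.0449, limma adjusted p = 0.932). The Alas2 value was -0.12 without vehicle pool 1, -0.30 without vehicle pool 3 and -0.50 after background correction by neqc, none of them past the threshold. At an unadjusted p under 0.05 by limma, 3 of 3 genes were lower under CI-994, against 2.2% of all probes, and 1 of 3 under Cpd-60, against 5.96%. In this test the pool was a random block, and the correlation between regions of a pool over all probes was estimated at -0.00497, so that the 9 arrays of a treatment counted nearly as separate samples. With each pool reduced to its mean over the regions, a unit chosen after seeing the data, Hbb-b1 differed by the same amount with limma adjusted p = 0.371, Hba-a1 with 0.668 and Alas2 with 0.9999. The Hbb-b1 call thus rests on counting regions of a pool as separate arrays.

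The pool means show what underlies these values. Hbb-b1 averaged 12.54, 12.69 and 12.28 in the vehicle pools and 12.06, 11.89 and 11.72 in the CI-994 pools. Hba-a1 averaged 12.31, 12.31 and 11.80 in vehicle pools and 11.67, 11.41 and 11.17 in CI-994 pools. For both globins every CI-994 pool lay below every vehicle pool, and an exact two-sided permutation test of the pools gave p = 0.1 for each, the smallest it can give (limma adjusted p above). Alas2 averaged 7.14, 7.07 and 6.77 in vehicle pools and 6.92, 6.75 and 6.76 in CI-994 pools, with an exact permutation p of 0.2. CI-994 pool 1 lay between the vehicle pools for Alas2.

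Under Cpd-60 the mean of the regions differed from vehicle by -0.29 for Hba-a1 (SE 0.154, interval -0.60 to 0.03, limma adjusted p = 0.541), -0.34 for Hbb-b1 (SE 0.113, limma adjusted p = 0.204) and -0.06 for Alas2 (limma adjusted p = 0.867). The Cpd-60 pools averaged 12.08, 11.85 and 11.62 for Hba-a1 and 12.29, 12.16 and 12.05 for Hbb-b1, so that both globins overlapped with vehicle. Exact permutation p values were 0.3, 0.2 and 0.8 for the 3 genes, none of which reached the smallest possible. Cpd-60 pool 2 is given other mouse numbers in 1 of its label fields than in the rest, and without it the differences were -0.29, -0.34 and -0.04, and that of Hba-a1 in PFC was 0.15. Under SAHA the differences were -0.57, -0.36 and -0.18, from pool means of 11.31, 11.65 and 11.75 for Hba-a1, 11.95, 12.24 and 12.24 for Hbb-b1, and 6.84, 6.80 and 6.81 for Alas2. All SAHA pools lay below all vehicle pools for both globins.

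**Figure D2:**
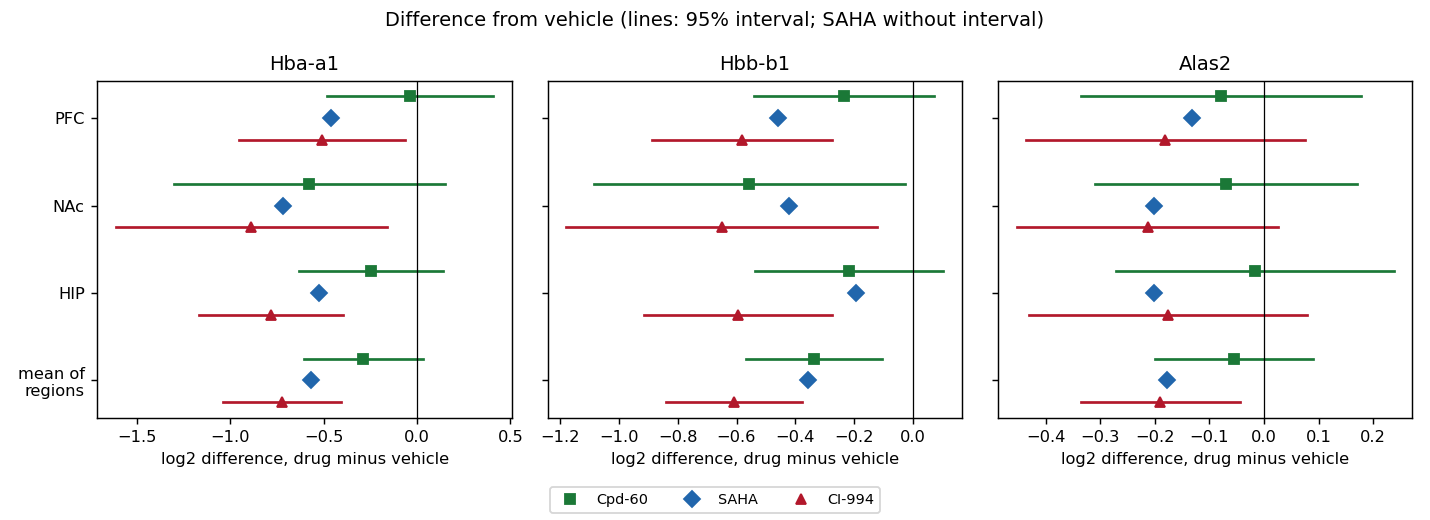
Difference from vehicle in log2 intensity (horizontal axes, 0 for no difference) of Hba-a1, Hbb-b1 and Alas2 for each drug. From top to bottom are PFC, NAc, HIP and the mean of the regions. Horizontal lines are 95% intervals for Cpd-60 and CI-994, and SAHA is drawn without one because its values chose the genes. All points lie below 0, and for CI-994 the mean of the regions is -0.73, -0.61 and -0.19.

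Across all 19447 probes tested in the 3 regions, CI-994 changed 16 (0.0823%), 8 of them downward (0.0411%). Of these 8, 6 were Hbb-b1 probes, with differences of -0.77 to -0.61 and limma adjusted p of 0.00843 to 0.0159. The remaining pair, named after their values were seen, were 9530064J02 (-0.44, limma adjusted p = 0.0129) and B230312L03Rik (-0.27, limma adjusted p = 0.00482). For Cpd-60, 111 probes passed (0.571%), and no probe of Hba-a1, Hbb-b1 or Alas2 was among them. All pools below all vehicle pools in each of the 3 regions was found for none of the 3 genes' summary probes, and for 11 of all probes under CI-994 (0.0566%).

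The 8 bright Hbb-b1 probes carry 1 gene symbol and are no replicates, and which of the adult beta globin genes each reads was not tested. Under CI-994 they differed from vehicle by -0.70 to -0.42 in PFC, -0.82 to -0.63 in NAc and -0.83 to -0.60 in HIP, and all 8 had an unadjusted p under 0.05 in each region by limma. All CI-994 pools lay below all vehicle pools for 4 of the 8 in PFC, 3 in NAc and 8 in HIP. Under Cpd-60 the 8 lay between -0.30 and -0.07 in PFC, -0.71 and -0.50 in NAc, and -0.47 and -0.22 in HIP. The mean of the regions was -0.46 to -0.30 under Cpd-60, with limma adjusted p of 0.0514 to 0.430. Under SAHA the bright probes lay between -0.51 and -0.29 in PFC, -0.59 and -0.42 in NAc, and -0.42 and -0.19 in HIP.

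Within the BeadChips of a region, which hold vehicle and CI-994 pools side by side, the Hbb-b1 difference of CI-994 was below 0 on 6 of 6, from -0.79 to -0.23. For Hba-a1 it was below 0 on 5 of 6, from -0.87 to 0.06, and for Alas2 on 4 of 6, from -0.30 to 0.12. Cpd-60 was below 0 on 5 of 6 for either globin and 4 of 6 for Alas2, and SAHA on 5 of 6 for each gene. The layout puts pools 1 and 2 of vehicle on the first BeadChip of every region and pool 3 on the other, so pool and BeadChip cannot be told apart in these values. Each CI-994 value set 1 array against 2 of vehicle or 2 against 1. The same pools recur in each region, so the 6 BeadChips are not independent, and no share over all probes stands beside the counts.

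The Hbb-b1 call under CI-994 was lost when vehicle pool 1 (-0.59, limma adjusted p = 0.165), vehicle pool 2 (-0.52, 0.496), CI-994 pool 2 (-0.61, 0.122) or CI-994 pool 3 (-0.52, 0.202) was left out. The Hba-a1 difference passed the threshold when vehicle pool 3 (-0.89, limma adjusted p = 0.0190), CI-994 pool 1 (-0.85, 0.0149) or Cpd-60 pool 3 (-0.73, 0.0436) was left out. Vehicle pool 3 was the vehicle pool with the lowest mean for all 3 genes.

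Whether a drug difference depended on the region was tested as an interaction. The difference in HIP minus the mean of PFC and NAc was -0.08, 0.02 and 0.02 for Hba-a1, Hbb-b1 and Alas2 under CI-994, and 0.06, 0.18 and 0.06 under Cpd-60. No value passed limma's test (adjusted p of at least 0.9995), and 0 of the 6 had an unadjusted p under 0.05, a limit that 0.555% of all probes passed downward under CI-994 and 0.869% under Cpd-60. This does not show that the regions respond alike.

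All 3 genes read higher in PFC than in NAc and HIP. Over all treatments, PFC had the highest mean of all 3 genes, at 12.19 for Hba-a1, 12.45 for Hbb-b1 and 7.02 for Alas2. In NAc the means were 11.62, 12.002 and 6.82, and in HIP 11.42, 12.07 and 6.84. Hba-a1 was 32.6% lower in NAc than in PFC (-0.57, SE 0.136, limma adjusted p = 0.00116) and 41.3% lower in HIP (-0.77, limma adjusted p = 3.06e-05). Hbb-b1 was 26.9% lower in NAc (-0.45, limma adjusted p = 0.000466) and 23.4% lower in HIP (-0.38, limma adjusted p = 0.00202). Alas2 was 12.4% lower in NAc (-0.19, limma adjusted p = 0.0134) and 11.7% lower in HIP (-0.18, limma adjusted p = 0.0187). HIP and NAc differed by -0.20, 0.07 and 0.01, none past the threshold (limma adjusted p of 0.288, 0.657 and 0.905).

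These calls have a wide background, since 41.9% of all probes differed between NAc and PFC (21.3% lower in NAc) and 46.8% between HIP and PFC (26.3% lower in HIP), and the regions were run on different BeadChips. In the vehicle arrays alone the values were -0.28, -0.36 and -0.17 for NAc against PFC and -0.63, -0.44 and -0.18 for HIP against PFC in Hba-a1, Hbb-b1 and Alas2, and none passed (limma adjusted p of 0.0899 to 0.552). Markers of vessel cells also differed between regions. Of 13 endothelial genes tested, 7 were lower and 2 higher in NAc than in PFC, and 8 were lower and 1 higher in HIP. Of 8 genes of pericytes and smooth muscle, 4 were lower in NAc, led by Acta2 (-0.75), and 5 in HIP, with 0 higher in either. The summed endothelial level ran from 11.45 to 11.60 over the PFC arrays, 11.37 to 11.56 in NAc and 11.23 to 11.42 in HIP, and that of pericytes and smooth muscle from 10.58 to 10.90, 10.28 to 10.51 and 10.33 to 10.54. The part of vessel content in the globin values was not tested.

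Ordered by level, the 12 groups of treatment and region ran from vehicle PFC (12.44 ± 0.464, SD, n = 3) to CI-994 HIP (11.03 ± 0.0959) for Hba-a1. For Hbb-b1 they ran from vehicle PFC (12.77 ± 0.279) to CI-994 HIP (11.73 ± 0.0107), and for Alas2 from vehicle PFC (7.11 ± 0.286) to CI-994 NAc (6.73 ± 0.181). No group differed from its neighbour in that order by more than the larger of their SDs, in any of the 11 steps for any of the 3 genes. The largest step was 0.25 for Hba-a1, 0.23 for Hbb-b1 and 0.12 for Alas2.

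Not all Hbb-b1 probes followed the regional pattern. Of the 8 bright probes, 6 were lower in NAc and in HIP than in PFC. The exceptions were ILMN_1216452 (-0.07 in NAc and 0.16 in HIP) and ILMN_1223244 (-0.20 and 0.02), although both were among the probes called under CI-994. The dim probes ILMN_2544056 and ILMN_1235372 were higher outside PFC: by 0.42 in NAc and 0.90 in HIP for the former (limma adjusted p of 0.0152 and 3.67e-06), and by 0.36 and 0.69 for the latter (0.0164 and 2.63e-05). The dim probe ILMN_1228877 differed by -0.01 in either region.

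The dim probes also parted by BeadChip. In NAc, ILMN_1235372 read 6.64 to 6.99 on the first BeadChip and 7.19 to 7.80 on the other, with no overlap. In HIP the order was turned, at 7.46 to 8.20 on the first and 7.04 to 7.45 on the other, while in PFC the BeadChips overlapped at 6.72 to 6.95 and 6.75 to 6.92. ILMN_2544056 had the same order, at 7.04 to 7.61 and 7.60 to 8.47 in NAc and 8.04 to 9.01 and 7.50 to 8.11 in HIP. Under CI-994 the mean of the regions differed from vehicle by -0.44 for ILMN_2544056 (limma adjusted p = 0.868) and -0.13 for ILMN_1235372.

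**Figure D3:**
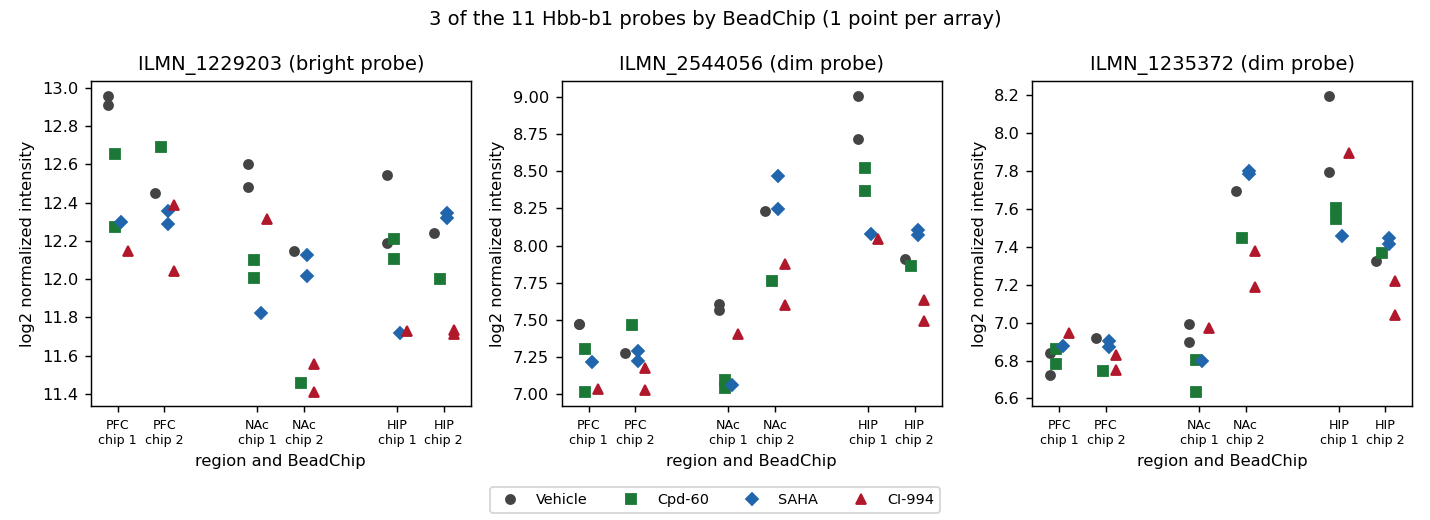
Log2 intensity (vertical axes) of the bright Hbb-b1 probe ILMN_1229203 and the dim probes ILMN_2544056 and ILMN_1235372, by region and BeadChip (6 arrays each, 1 point per array). The dim probe ILMN_1235372 separates by BeadChip in NAc, at 6.64 to 6.99 against 7.19 to 7.80, and in the opposite order in HIP.

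Within treatment and region the 3 genes moved together from array to array. With group means removed, Hba-a1 and Hbb-b1 had r = 0.94 over 36 arrays, Hba-a1 and Alas2 r = 0.60, and Hbb-b1 and Alas2 r = 0.51, given as descriptions since the arrays share pools and BeadChips. With BeadChip also removed these were 0.92, 0.66 and 0.58. Bright Hbb-b1 probes had r of 0.66 to 0.94 with Hba-a1 (median 0.91) and dim ones -0.24 to 0.10. With BeadChip removed, the dim probe ILMN_2544056 reached 0.83 with Hba-a1 and ILMN_1235372 reached 0.42.

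Whether regions of the same pool agreed was asked of the deviation of each pool from its treatment mean in 2 regions, over 12 pools. Each pool held the same BeadChip order and the same position on the BeadChip in every region. Pool and position therefore cannot be told apart in these values. For Hba-a1, Pearson's r was 0.28 between PFC and NAc, 0.17 between PFC and HIP and 0.43 between NAc and HIP, with exact permutation p (within treatments, two-sided) of 0.378, 0.471 and 0.0826. Spearman's rho was 0.37, 0.40 and 0.50, with exact permutation p of 0.265, 0.168 and 0.113. None of these passed adjustment over the 9 relations tested (adjusted p of 0.567, 0.606 and 0.248 for r).

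For Hbb-b1, r was 0.07, 0.01 and 0.40 in the same order, with exact permutation p of 0.798, 0.988 and 0.0656 (adjusted p of 0.898, 0.988 and 0.248), and rho was -0.05, -0.03 and 0.46, with exact permutation p of 0.890, 0.935 and 0.0934. For Alas2, r was 0.40, 0.51 and 0.67, with exact permutation p of 0.269, 0.265 and 0.0324 (adjusted p of 0.485, 0.485 and 0.248), and rho was 0.45, 0.45 and 0.69, with exact permutation p of 0.196, 0.255 and 0.0370 (adjusted p of 0.333 for the last). NAc and HIP gave the highest r of the 3 pairs for each gene, but no relation passed the adjustment. Without the 2 pools farthest from the median on the x axis, r was 0.26, 0.39 and 0.53 for Hba-a1, -0.04, 0.02 and 0.48 for Hbb-b1, and 0.38, 0.22 and 0.58 for Alas2.

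Removing the BeadChip raised the NAc with HIP value of both globins, to 0.77 for Hba-a1 and 0.78 for Hbb-b1, and lowered that of Alas2 to 0.05. Scaling arrays by their median in place of quantile normalisation turned the globin values of that pair negative, at -0.37 for each. The 8 bright Hbb-b1 probes gave 0.33 to 0.87 for NAc with HIP, -0.09 to 0.36 for PFC with NAc and -0.06 to 0.40 for PFC with HIP. Over all probes the median r was -0.0025 for PFC with NAc, 0.17 for PFC with HIP and -0.12 for NAc with HIP, and 15.9% of probes had r above 0 in all 3 pairs, as the summary probes of all 3 genes did.

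Some pools kept to one side of their treatment mean throughout. For Hba-a1, 7 of 12 pools did so: vehicle pools 1 and 2, Cpd-60 pool 1 and SAHA pool 3 were above the mean in every region, and vehicle pool 3, CI-994 pool 3 and SAHA pool 1 were below it. For Hbb-b1, 6 of 12 did, with vehicle pool 2, Cpd-60 pool 1 and SAHA pool 2 above and vehicle pool 3, CI-994 pool 3 and SAHA pool 1 below. For Alas2, 5 of 12 did, with vehicle pool 1, Cpd-60 pool 1 and CI-994 pool 1 above and vehicle pool 3 and CI-994 pool 3 below. Vehicle pool 3 and CI-994 pool 3 were thus below their treatment mean for all 3 genes in all regions, and Cpd-60 pool 1 was above its own. These sides were counted by sign alone, without a share over all probes beside them. Some deviations were very small, such as 0.00013 for Cpd-60 pool 1 and -0.012 for CI-994 pool 3, both for Hbb-b1 in HIP.

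**Figure D4:**
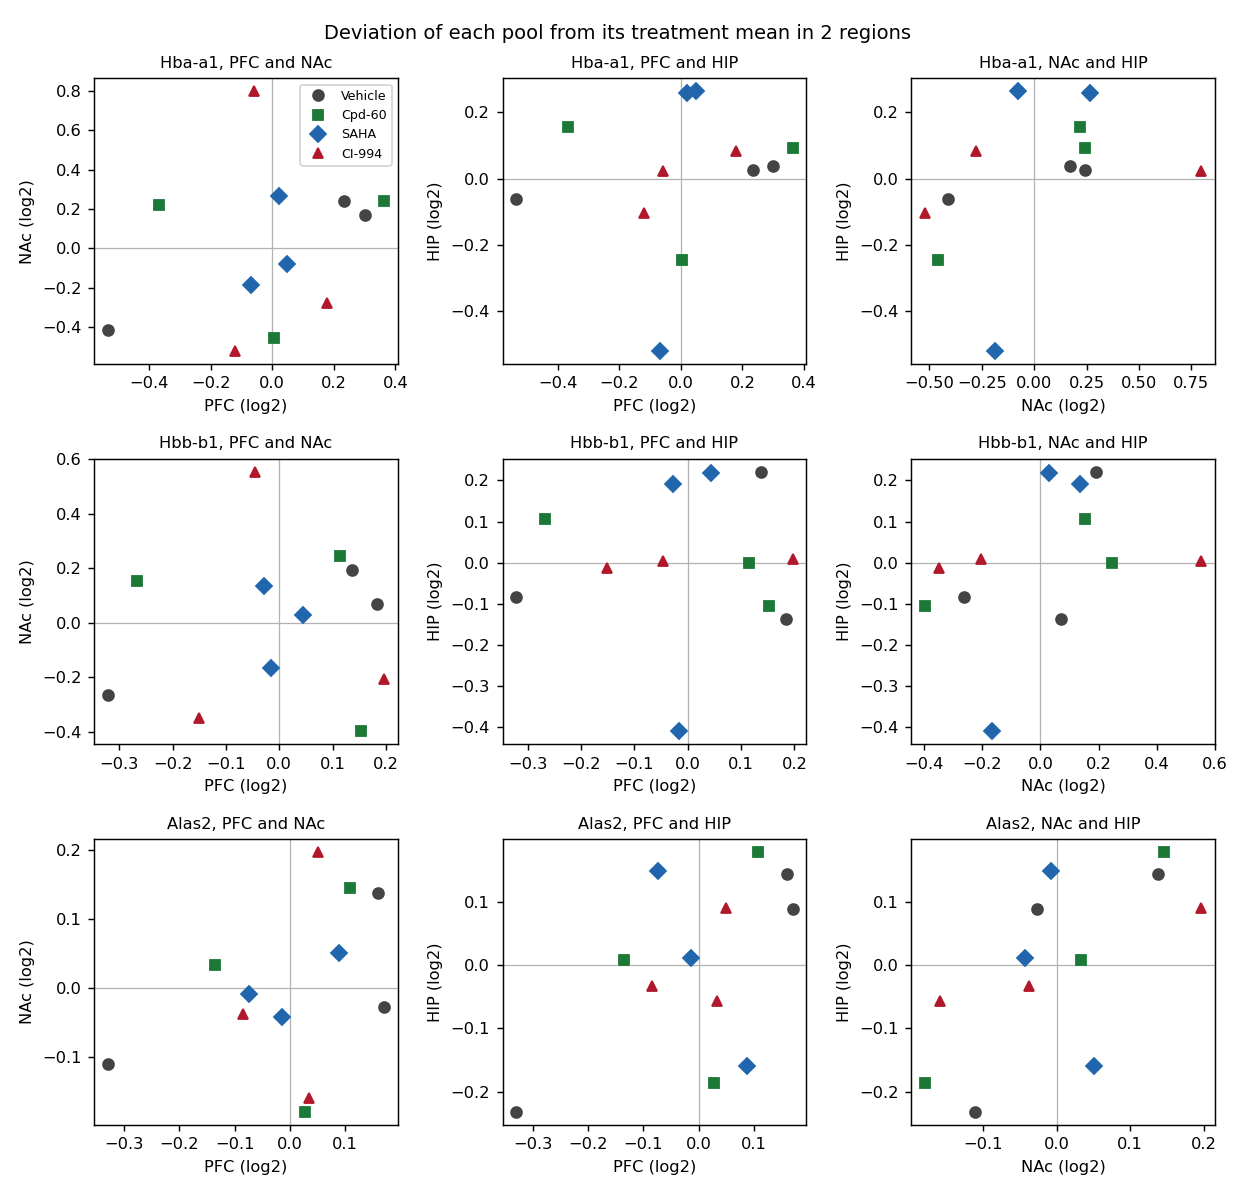
Deviation of each pool from its treatment mean (log2 intensity) in 1 region against another, for the 3 pairs of regions (columns) and 3 genes (rows), with 1 point for each of the 12 pools. For Hbb-b1 the points of PFC against HIP have no slope (r = 0.01), whereas NAc against HIP has r = 0.40.

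By likeness to the mean of the Hba-a1 and Hbb-b1 summary probes over 36 arrays with group means removed, the 10 closest other genes were Ogfod2 (r = 0.76), Snd1 (0.76), Upf3a (0.75), Rab3gap2 (0.75), Cnot2 (0.73), Mgp (0.71), Inpp5e (0.70), Tmem131 (0.70), Mrpl4 (0.70) and A830091E24Rik (0.70). The median over all probes was 0.0748 and the 99th percentile 0.583, and 8 probes of Hba-a1, Hbb-b1 or Alas2 stood above every other probe, among them the summary probes that make up the mean. The CI-994 differences of the 10 other genes lay between -0.06 and 0.10 (limma adjusted p of at least 0.9999). Among the gene lists, the highest median r was that of 5 cortical genes (0.42, range -0.11 to 0.59), 1 of them detected on all arrays.

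No other globin gene passed under CI-994 or Cpd-60. Of 15 on the list, 8 were on the array. Hbb-b2, the embryonic Hbb-bh1, Hbb-y and Hba-x, and Hbq1 were detected on 0 of 36 arrays at p of at most 0.01, and myoglobin (Mb) on 2. Cytoglobin (Cygb) differed from vehicle by 0.02 under CI-994 and 0.13 under Cpd-60 (limma adjusted p = 0.776), and neuroglobin (Ngb), the oxygen-binding globin of neurons, by -0.03 and -0.12 (limma adjusted p = 0.694). Ngb was lower in HIP than in PFC (-0.25, limma adjusted p = 0.00628) and than in NAc (-0.38, limma adjusted p = 0.00013). Of all probes, 26.3% and 17.9% were called lower in HIP in these comparisons. The Ngb probe was as near background as that of Alas2, with mean levels of 6.85 and 6.89.

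Of the 14 genes of heme synthesis and its mitochondrial transporters beside Alas2, 13 were tested in all regions, and none passed under CI-994 or Cpd-60. Their median difference under CI-994 was 0.04, against 0.0013 over all probes, with a range of -0.11 to 0.16. The ubiquitous first enzyme Alas1 differed by -0.11, the following enzymes Alad by 0.08, Uros by 0.02, Urod by 0.16 (limma adjusted p = 0.931), Cpox by 0.09 and Ppox by -0.03, and ferrochelatase (Fech), which inserts the iron, by -0.00. Among the transporters, Slc25a38 differed by 0.04, Slc25a39 by -0.00, Abcb6 by -0.05, Abcb10 by 0.04 and Tmem14c by 0.13. Under Cpd-60 the largest were Slc25a38 at -0.21 (limma adjusted p = 0.472) and Tmem14c at -0.19 (limma adjusted p = 0.356). Unlike Alas2, Alas1 was higher in HIP than in PFC, by 0.38 (limma adjusted p = 0.000474).

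Markers of red cells beyond hemoglobin were mostly out of reach. Of 25 membrane and enzyme genes on the array, 11 were tested in all regions, with a median difference of -0.02 under CI-994 (range -0.12 to 0.04, 7 below 0) and none called. Rhag, Rhd, Kel, Car1, Eraf, Hemgn, Trim10 and Epb4.2, which mark the red cell lineage, were detected on 0 arrays, and the band 3 anion exchanger Slc4a1 on 10 (-0.06 under CI-994). Prdx2 (-0.16), Spnb1 (-0.16) and Epb4.9 (-0.14) had the largest values under Cpd-60, with limma adjusted p of 0.347 to 0.871. The erythroid factors Klf1 and Gata1 were detected on 1 and 0 arrays, and the 5 tested genes of that list had a median of 0.02 under CI-994, with Lmo2 at 0.07. The summed level of 15 genes of the red cell list, over arrays of all regions, ran from 12.96 to 13.21 under vehicle and 12.94 to 13.17 under CI-994, so that the groups overlapped. The list holds genes well above background here, such as Prdx2 at a mean level of 11.78, so the sum does not measure red cells alone.

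In the other lists, 2 genes passed under a tested drug, and both under Cpd-60, for which 0.571% of all probes passed. With pool means as the unit, 1 probe in all passed under Cpd-60 (0.00514%). Ddit4, a stress-induced inhibitor of mTOR signaling, rose under Cpd-60 by 0.59 (limma adjusted p = 0.0198) among 11 tested genes of oxygen sensing. S100a8, a calcium-binding protein of neutrophils, rose under Cpd-60 by 0.30 (limma adjusted p = 0.0348), and was detected on 14 arrays. The summed level of 6 neutrophil genes was uneven between the Cpd-60 pools. It ran from 9.38 to 10.52 in PFC (mean 9.79), 9.22 to 10.57 in NAc (mean 9.68) and 9.21 to 10.19 in HIP (mean 9.55). Vehicle arrays ran from 9.15 to 9.26. In heme clearance, the biliverdin reductases Blvrb and Blvra differed by 0.19 and 0.18 under CI-994 (limma adjusted p of 0.853 and 0.932). In iron handling, Trf differed by -0.18 under CI-994, Tfrc by 0.15 under Cpd-60 (limma adjusted p = 0.405) and Ftl1 by 0.33 under SAHA.

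No gene of the endothelial, pericyte, platelet, neutrophil or lymphocyte lists passed under CI-994. The endothelial list had a median of -0.01 over 12 tested genes, with Ly6c1 at -0.25 (limma adjusted p = 0.375), and its summed level ran from 11.37 to 11.60 over vehicle arrays and 11.29 to 11.60 over CI-994 arrays. Genes of pericytes and smooth muscle had a median of -0.01, with Acta2 at -0.14. The 3 tested platelet genes had a median of 0.01, with Gp9 at 0.06, and of the 2 tested lymphocyte genes Igh-6 differed by -0.25 (limma adjusted p = 0.314). Under Cpd-60 the endothelial transporter Slco1c1 differed by -0.25 (limma adjusted p = 0.0640). The part of other cell types in the globin differences was not tested.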

How the data were processed

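The authors deposited raw probe intensity, without background subtraction or normalisation, and a detection p-value for each probe on each of 36 Illumina MouseWG-6 arrays. Total RNA of 2 mice per pool was labelled with biotin, and the software that summarised the beads is not given in the sources used here. From these deposited values, log2 levels were computed here: all arrays were quantile normalised together, set to a floor of 1 and put on the log2 scale. A probe entered the tests where its detection p was 0.2 or less on each of the 3 arrays of any group. Within regions, limma 3.58.1 in R 4.3.3 compared each drug with vehicle. Across regions, the pool was a random block. P-values were adjusted by Benjamini and Hochberg over all probes tested, with a threshold of 0.05. The probe with the highest mean intensity stood for a gene, and the named genes were all members, the 10 genes of most similar pattern, and, per list, genes past the threshold or else the 3 with the largest difference. The procedure was run on simulated data. For the limma fits the simulated noise was independent between arrays, so that run did not test regions of a pool that vary together, or BeadChip effects. Members and gene lists were chosen with earlier results of these data known. For Cpd-60, the title and source of 1 pool were followed where the description differs. Alternatives were neqc, median scaling, other detection limits, BeadChip and replicate blocks, analysis of variance with Tukey's test, other probes, fewer arrays and leaving out each pool. Promoters came from RefSeq; Hba-a1 and Alas2 matched by symbol and Hbb-b1 did not. Sequences of probes and proteins were not used here. Values of some list genes are not reported here.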

Additional observations from a re-analysis of the deposited data

How the results depend on the processing

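Over all settings tried, the difference from vehicle averaged over the regions was below 0 in 62 of 62 values for Hba-a1, 65 of 65 for Hbb-b1 and 60 of 62 for Alas2, and within regions in 182 of 186, 194 of 195 and 180 of 186. These counts pool the 3 drugs, including the SAHA differences that chose the genes. All settings reuse the same arrays and vehicle pools, so the values are not independent. With arrays scaled to a common median, the Hbb-b1 difference under CI-994 was -0.55 and lost its call (limma adjusted p = 0.319), the same-pool r turned to -0.25 and -0.37 for Hba-a1 and to -0.33 and -0.37 for Hbb-b1 (PFC with NAc, NAc with HIP), Alas2 lost its calls between regions (-0.15 in NAc and -0.12 in HIP against PFC), Hba-a1 under Cpd-60 in PFC was 0.012, Hba-a1 and Hbb-b1 under SAHA in HIP were -1.12 and -0.74, and the HIP difference minus that of the other regions was -0.050 for Hba-a1 under Cpd-60 and, under CI-994, -0.10 for Hbb-b1 and -0.089 for Alas2. That last quantity for Hbb-b1 was also -0.079 with the BeadChip as a block and -0.17 over the other Hbb-b1 probes. The Hba-a1 difference under CI-994 passed with a detection limit of 0.01 (-0.73, limma adjusted p = 0.0472) and with a block for BeadChip order (-0.65, 0.0434). Taking pool means as the unit, chosen after seeing the data, Hbb-b1 was -0.61 without a call. After neqc, Alas2 under SAHA was -0.46. The cause of these changes was not tested.

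Leaving out 1 pool at a time gave -0.89 to -0.60 for Hba-a1 and -0.72 to -0.52 for Hbb-b1 under CI-994, averaged over regions, and -0.17 to 0.018 for Alas2 under Cpd-60. Within regions under Cpd-60, Hba-a1 in PFC ran from -0.30 to 0.15, and Alas2 from -0.24 to 0.0063 in PFC, -0.14 to 0.020 in NAc and -0.13 to 0.075 in HIP. The HIP difference minus that of the other regions ran from -0.054 to 0.26 for Hba-a1 under Cpd-60 and, under CI-994, from -0.19 to 0.12 for Hba-a1 and -0.11 to 0.14 for Hbb-b1. Between regions, Alas2 ran from -0.22 to -0.16 in NAc and from -0.21 to -0.15 in HIP against PFC, losing its call without CI-994 pool 2 in the former and without Cpd-60 pool 3 or SAHA pool 3 in the latter, and from -0.0066 to 0.039 in HIP against NAc. The same-pool r ran from -0.026 to 0.53 (PFC with NAc), 0.10 to 0.37 (PFC with HIP) for Hba-a1, -0.25 to 0.30 and -0.16 to 0.16 for Hbb-b1, and for Alas2 from -0.082 to 0.69 (PFC with HIP) and 0.54 to 0.82 (NAc with HIP). It passed the adjustment for Hba-a1 (PFC with HIP) without Cpd-60 pool 2 and for Alas2 (NAc with HIP) without SAHA pool 3.

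In vehicle arrays alone, region differences were -0.28, -0.36 and -0.17 (NAc against PFC) and -0.63, -0.44 and -0.18 (HIP against PFC) for the 3 genes without a call, and -0.082 for Hbb-b1 and -0.0087 for Alas2 (HIP against NAc). Without the CI-994 arrays, Alas2 was -0.19 and -0.18 (NAc and HIP against PFC), with no call, and the Hbb-b1 r of PFC with HIP was -0.0023. With the BeadChip removed, r was 0.12 and 0.77 for Hba-a1 and 0.20 and 0.051 for Alas2 (PFC with NAc, NAc with HIP), and 0.78 for Hbb-b1 (NAc with HIP). With treatment means kept, r was 0.52, 0.59 and 0.69 for Hba-a1, 0.48, 0.54 and 0.63 for Hbb-b1 (PFC with NAc, PFC with HIP, NAc with HIP), and 0.55 and 0.77 for Alas2 (PFC with NAc, NAc with HIP). Spearman's rho for Hbb-b1 was -0.049 and -0.035 for PFC with NAc and PFC with HIP.

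Pools of the same number in different treatments are different mice, but the number also follows the BeadChip. Pool 1 of each treatment lay on the first BeadChip of each region and pool 3 on the other. A block for the number thus takes in part of the BeadChip layout. Same-numbered pools correlated from -0.334 to 0.589 with vehicle in PFC, -0.451 to 0.727 in NAc and -0.176 to 0.488 in HIP (9 pairs each). With the number as a replicate block, Hba-a1 under CI-994 was -0.73 (limma adjusted p = 0.0202) and Hbb-b1 -0.61 (0.00553), and the block raised the count of calls from 111 to 269 for Cpd-60 and from 16 to 25 for CI-994.

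Counts of calls over all probes also changed with the settings. For Cpd-60 the 111 calls became 0 with median scaling, 69 with neqc, 41 without the CI-994 arrays, 340 with the BeadChip block, 63 with no detection filter, 1 with pool means and 1 to 931 with a pool left out. For CI-994 the 16 calls became 0, 34 with the BeadChip block, 1 with pool means and 1 to 23 with a pool left out. For SAHA in HIP the count went from 0 to 3241 with median scaling and to 1 with the replicate block. In vehicle arrays alone, 11153, 12435 and 8833 calls between regions (NAc against PFC, HIP against PFC, HIP against NAc) became 4171, 5572 and 3657. The weak signal of the Alas2 probe over background limits its values.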
